A study of Mus musculus with 96 samples.

Results

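The nuclear genes of the oxidative phosphorylation (OXPHOS) machinery were followed across sister cells born from divisions of cultured horizontal basal cells (HBCs), the reserve stem cells of the olfactory epithelium (OE). Members were chosen by gene symbol alone, as the rows that begin with Ndufa, Ndufb, Ndufc, Ndufs, Ndufv, Uqcr, Atp5 or Cox4 to Cox8, together with Sdha, Sdhb, Sdhc and Sdhd. Symbols that begin with Ndufaf, which name assembly factors, and symbols that carry "-ps" were dropped. This gave 90 of the 55487 genes in the count table, with 41 members in complex I, 4 in complex II, 8 in complex III, 19 in complex IV and 18 in complex V. The members lay on 18 autosomes, apart from 3 on the X chromosome (Ndufa1, Ndufb11 and Cox7b).

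The 96 libraries were single cells, the 2 daughter cells of each of 48 divisions. All cells came from wild-type mice aged 6 to 8 weeks whose OE had been injured with methimazole 2 days before dissection, after which HBCs were grown in culture and the daughter cells picked by mouth pipette with their pairing recorded. RNA was captured through its poly(A) tail by G&T-seq, and the synthetic ERCC transcripts were added to each lysate. There was 1 group and no treatment contrast, and the labels name neither the mouse, the culture nor the coating of the dish for a cell, so the cells form 1 sample and every value below is a description without a p-value.

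Oxidative phosphorylation couples the oxidation of NADH and succinate to the synthesis of ATP at the inner mitochondrial membrane. Complex I oxidizes NADH, complex II (succinate dehydrogenase) oxidizes succinate, complex III passes the electrons to cytochrome c, and complex IV (cytochrome c oxidase) reduces oxygen, while complex V is the ATP synthase that uses the proton gradient. Most subunits are encoded in the nucleus and imported, but a small set that includes the catalytic core of complex IV is encoded by the mitochondrial genome, so that the supply of subunits draws on both genomes. Stem cells that leave quiescence are known to change their reliance on glycolysis and respiration.

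Between 29454150 and 44849003 counts per cell fell on genes, and ERCC took 1.06 to 5.75% of counts. These counts are estimates made by the authors from coverage, without molecular identifiers, so intervals cover counting error only. The intervals treat cells, or pairs, as independent draws. They leave out the pairing of cells and any mouse, culture or set that cells share. The HBC markers Krt5, Krt14 and Trp63 were counted in 96 of 96 cells, with at least 10 counts in each. Of 17 markers of other cells of the tissue, 1 (Gap43) reached 10 counts in at least 10% of cells, and Kit had no count. At 1 count or more, Pecam1 was found in 92 cells, Gap43 in 22, Gng13 in 16, Lgr5 in 14 and the rest in 7 or fewer. The summed level of the 17 ranged from 0 to 80.2 TPM with a median of 0.123. Their Spearman correlation with the summed members over 96 cells was -0.10 on the scale of counts per total of gene counts (CPM), -0.17 with the median of ratios over genes, -0.02 with TPM and 0.45 with ERCC scaling. The files were named in 12 sets of 8 cells, each set holding 4 pairs, and how the sets were handled is not stated.

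Nearly the whole machinery was present in every cell. Of the 90 members, 78 were counted in all 96 cells, and the same 78 had at least 10 counts in each cell. Levels were compared per length as TPM, the transcript levels corrected for length and library total that the authors deposited. The median TPM over cells was 100 or more for 71 members and 1000 or more for 5 of them. By symbol, complex V had the highest middle level, with a median of 542 TPM over its members, followed by complex III at 425, complex IV at 420, complex II at 255 and complex I at 196. These medians cover the 82 members that reached 10 counts in at least 10% of cells. The 14 such members of complex IV include Cox6b2 and Cox7a1, each with a median of 0 TPM, and the annotated pseudogene Cox6c2 (1.25 TPM). Among the 11 members of complex IV counted in all cells, the middle one was Cox7a2 at 608 TPM, above the median of complex V. The place of complex IV in this order thus depended on the filter. The medians of single members overlapped between all 5 complexes.

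In complex I, Ndufa4 stood far above the other members, with 689 TPM in the lowest cell, a median of 1587 and 3184 in the highest. Ndufa4 carries a complex I name, but its protein is now placed in complex IV by many workers. The next member, Ndufa2, an accessory subunit, had a median of 609 TPM. The 7 nuclear core subunits, which include the holders of the flavin and iron-sulfur clusters, had medians between 70.01 and 285 TPM. Ndufs1, the largest of the core subunits by coding length, was the lowest of the 7. The other 32 members of complex I that passed the filter had medians between 0.644 and 1587 TPM. These ends belong to Ndufs6b, an annotated pseudogene, and to Ndufa4. Without them and the pseudogene Ndufb4c, medians ran from 69.7 (Ndufb2) to 609 TPM (Ndufa2), so core and accessory subunits overlapped in level.

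Complex II is the one complex without a mitochondrially encoded subunit. The enzyme holds its 4 subunits in equal number, while the levels of their genes differed. Sdhd, a membrane anchor that holds the enzyme in place, ranged from 154 to 865 TPM with a median of 456. Sdhb, the iron-sulfur subunit, ranged from 109 to 935 TPM with a median of 355. Sdha, the flavoprotein that oxidizes succinate, ranged from 21.0 to 334 TPM with a median of 154. Sdhc, the other membrane anchor, was lowest, between 18.6 and 137 TPM with a median of 66.1. The ranges of Sdhd and Sdhc did not overlap, whereas those of Sdhd and Sdhb did over most of their length.

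In complex III, Uqcr11, a small subunit, had the highest median at 952 TPM, with a range of 499 to 1710. The lowest was Uqcrc2, a core protein of the matrix arm, with a median of 180 TPM and a range of 58.8 to 566. In complex IV, Cox4i1, the regulatory subunit in most tissues, was the most abundant of all members, with 762 TPM in the lowest cell, a median of 1678 and 2343 in the highest. In complex V, Atp5b, the catalytic beta subunit, led with 568, 1357 and 1975 TPM for the lowest, median and highest cell. Its partner Atp5a1, the alpha subunit, ranged from 213 to 1032 TPM with a median of 544, although both subunits occur in equal number in the enzyme. The lowest regular member of complex V was Atp5k, a small subunit of the membrane part, with a median of 212 TPM.

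**Figure D1:**
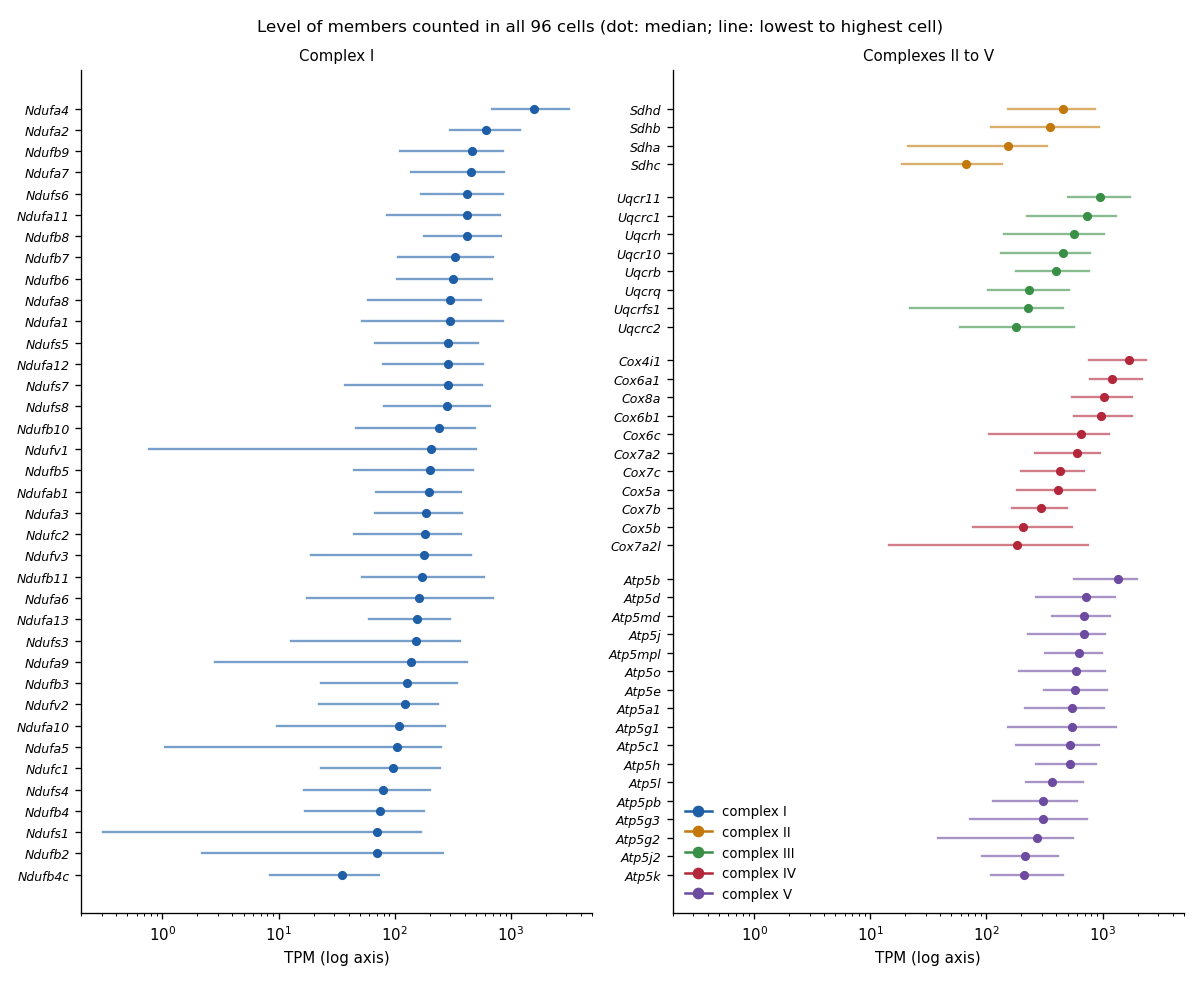
Levels in TPM (log axis) of members counted in all 96 cells, grouped by complex, with the dot at the median and the line from the lowest to the highest cell. Most lines span less than 10-fold, Cox4i1 and Ndufa4 lie farthest to the right, and the lines of Ndufs1, Ndufv1, Ndufa5, Ndufb2 and Ndufa9 reach down to 0.309, 0.759, 1.05, 2.19 and 2.82 TPM.

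Very low values of an abundant member were rare. Among the 78 members counted in all cells there were 7488 values, of which 13 lay below 10% of the member's median on the CPM scale. These 13 values came from 12 cells and 10 members, with at most 2 in 1 cell. Ndufv1, the flavin-bearing subunit of complex I, was at 0.759 TPM in daughter 1 of pair 32 and at 308 TPM in its sister. Ndufa9, an accessory subunit, was at 2.82 TPM in daughter 1 of pair 41 and at 312 TPM in its sister. Ndufb2 was at 2.19 TPM in daughter 1 of pair 40 and at 65.03 TPM in its sister. Ndufs1 and Ndufa5 were low in both cells of a pair, with 0.309 and 11.1 TPM for Ndufs1 in pair 11 and 1.05 and 16.7 TPM for Ndufa5 in pair 14.

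Several subunits have paralogs used in other tissues, and these were absent or scarce. The muscle isoforms Cox6a2 and Cox8b and the testis isoforms Cox7b2 and Cox8c had no count in any cell, which allows a share of up to 3.12% of cells with a count (3 of 96) for each of them and sets no limit on cells that express them. Their widespread counterparts Cox6a1, Cox8a and Cox7b were counted in every cell, at median levels of 1198, 1034 and 296 TPM. Cox4i2, an isoform of lung and of low oxygen, was counted in 7 cells and made up at most 0.762% of the summed COX4 level in TPM in any cell. Ndufa4l2, which is known to respond to hypoxia, was counted in 8 cells and reached at most 34.2 TPM.

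The testis isoform Cox6b2 and the muscle and heart isoform Cox7a1 were found in scattered cells. Cox6b2 was counted in 19 cells (19.8%, Clopper-Pearson 95% interval 12.4 to 29.2%), and both sisters were positive in 3 of the 16 pairs with any count. Its highest values were 96.6, 41.4 and 33.3 TPM, and in the top cell it reached 9.97% of the summed COX6B level. Cox7a1 was counted in 14 cells (14.6%, interval 8.21 to 23.3%), always in just 1 of the sisters, with a highest value of 27.7 TPM. Its counts were 10 or more in 13 of the 14 cells, so that these 13 cells did not rest on a single read. A count stands for 75 bases of coverage and reads had 150 bases, so 10 counts can be fewer than 10 reads. Amplification of few molecules was not tested.

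Other families were shared between several expressed genes. Subunit c of the ATP synthase is one mature protein made from Atp5g1, Atp5g2 and Atp5g3, and these contributed a median of 48.1%, 23.9% and 27.7% of the summed level in TPM. The share of Atp5g1 varied from 16.4 to 71.6% over cells. Within the COX7A family, Cox7a2 made up a median of 76.95% and Cox7a2l, a factor of respiratory supercomplexes, a median of 22.9%, with a range of 1.66 to 59.2% for Cox7a2l. These shares compare different genes per length within the same cells, and the widths of their ranges include the scatter of single-cell libraries.

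Some members share sequence with other rows, which limits what their counts mean. In the mouse annotation 4 members are processed pseudogenes (Ndufb4c, Cox6c2, Ndufs6b and Ndufa11b), although their symbols read as genes. For 15 of the 90 members, at least 20% of the 75-base stretches of the main transcript also occurred in a transcript of another gene, and for Ndufb4c and for Atp5g2 all of them did. Ndufb4c took 20.1 to 40.4% of the level summed with Ndufb4 in every cell, and how reads were divided between these copies cannot be told from the tables. A second row under the symbol Atp5o (ENSMUSG00000116933) was counted in 2 cells, with at most 0.182 TPM.

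The sequence just upstream of the start sites was read for 69 member symbols, which had 74 promoter windows of 300 bases in the RefSeq table (GRCm38.p6), from 250 bases before to 50 after the start. Letters of known regulators of respiratory genes were searched on both strands. The letters GCGCATGCG, bound by the nuclear respiratory factor NRF1, occurred in 10.8% of member windows and in 1.75% of all 32851 windows. The letters CCGGAAG of the ETS factor GABPA occurred in 23.0% of member windows and in 8.86% of all. The letters AAGATGGC of YY1 occurred in 13.5% and 2.75%. The general elements differed less, with 14.9% and 11.4% for the Sp1 letters GGGGCGGGG, 41.9% and 37.4% for CCAAT, and 12.2% and 13.6% for TATAAA. Member windows also had more G and C (57.5% against 53.8%), and the part of base composition in these shares was not tested. Among 73 windows of ribosomal protein genes, the shares were 4.11% for the NRF1 letters, 35.6% for GABPA and 9.59% for YY1.

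The 250 bases before the start are shown for 4 members at the ends of the patterns described further on, each on the strand of its gene, with matches to any of these letters in capitals. Cox6a1 (chr5:115348959-115349208, minus strand) and Atp5g2 (chr15:102671048-102671297, minus strand) had the highest agreement between sisters, and Cox7a2 (chr9:79759854-79760103, minus strand) and Atp5b (chr10:128083057-128083306, plus strand) had the highest and the lowest correlation with the other members.
Cox6a1: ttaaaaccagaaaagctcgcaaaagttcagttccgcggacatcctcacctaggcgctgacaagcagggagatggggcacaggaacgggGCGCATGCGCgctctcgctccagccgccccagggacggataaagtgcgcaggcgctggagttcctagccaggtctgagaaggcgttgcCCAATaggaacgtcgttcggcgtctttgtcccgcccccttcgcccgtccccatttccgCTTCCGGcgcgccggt
Atp5g2: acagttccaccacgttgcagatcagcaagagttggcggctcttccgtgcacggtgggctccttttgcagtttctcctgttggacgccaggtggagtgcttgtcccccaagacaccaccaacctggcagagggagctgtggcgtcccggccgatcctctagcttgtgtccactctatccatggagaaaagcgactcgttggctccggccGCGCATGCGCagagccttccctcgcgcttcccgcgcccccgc
Cox7a2: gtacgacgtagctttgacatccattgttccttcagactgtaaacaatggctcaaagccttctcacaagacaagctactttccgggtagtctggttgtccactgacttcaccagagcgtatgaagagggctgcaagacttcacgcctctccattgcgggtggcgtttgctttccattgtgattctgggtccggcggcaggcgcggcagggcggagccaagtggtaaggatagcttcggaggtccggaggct
Atp5b: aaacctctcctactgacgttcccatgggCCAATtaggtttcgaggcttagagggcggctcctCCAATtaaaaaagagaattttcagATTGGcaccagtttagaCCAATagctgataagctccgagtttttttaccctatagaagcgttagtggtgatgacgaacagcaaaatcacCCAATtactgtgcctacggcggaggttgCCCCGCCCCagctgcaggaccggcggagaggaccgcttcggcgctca
In Cox6a1 and Atp5g2 the capitals of the NRF1 letters cover a match on each strand that overlap by all but 1 base. Cox6a1 also held a CCAAT and, on the reverse strand, the GABPA letters close to the start. Atp5b held CCAAT in 5 places, 1 of them on the reverse strand, and the Sp1 letters on the reverse strand. Cox7a2 held none of the letters searched in this stretch, which says nothing about which factors bind it.

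Summed over all members, the machinery took a narrow share of each transcriptome. The members held 1.33% of gene counts in the lowest cell, 1.68% in the median cell and 2.08% in the highest, a range of 1.56-fold over 96 cells. On the TPM scale they held 2.68 to 4.17% with a median of 3.43%. For comparison, the 13 mitochondrially encoded mRNA genes held 1.05 to 3.63% of gene counts with a median of 1.81%, and on the TPM scale a median of 3.22%. Single mitochondrially encoded genes were more abundant per length than most nuclear members, with medians between 322 TPM (mt-Nd3) and 7828 TPM (mt-Co1). Over the 12 sets, the median share of the nuclear members lay between 1.56 and 1.88%, and 27.4% of the variance of its log2 lay between sets.

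Sisters resembled each other in this share. The ratio between the higher and the lower sister had a median of 1.05 and a maximum of 1.37 over 48 pairs. A threshold of 1.5-fold was reached by 0 of 48 pairs (0%, Clopper-Pearson 95% interval up to 7.40%). The share ranged 1.56-fold over all cells, so hardly any cells, sisters or not, could differ that far. This count therefore says little about sisters. Ratios between cells that are not sisters were not taken. The intraclass correlation, which is the part of the variance shared by sisters, was 0.48 for the log2 share. Both sisters of a pair lay in the same set, so this value includes differences between sets, which held 27.4% of the variance. That part was not separated, here or in the intraclass correlations given further on. The lowest cell was daughter 1 of pair 4 with 1.33%, and its sister held 1.82%, the widest gap of all pairs. Daughter 1 was the higher one in 25 of 48 pairs (52.1%, interval 37.2 to 66.7%), and the numbering of daughters carries no known meaning.

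**Figure D2:**
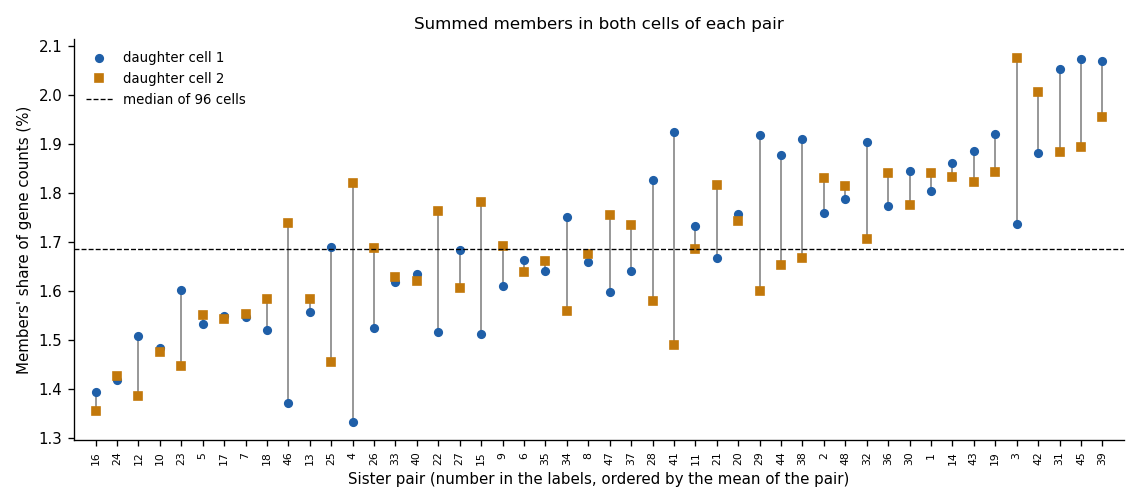
Share of gene counts held by the summed members (%, vertical axis) in both daughter cells of each pair, with the 48 pairs ordered by their mean and the 2 cells joined by a line. Shares run from 1.33 to 2.08%, sisters mostly lie close together, and the widest gap is in pair 4.

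Scaled to the ERCC spike-in, which keeps differences in total RNA, the summed members ranged 4.84-fold over cells and 3 of 48 pairs reached 1.5-fold (6.25%, interval 1.31 to 17.2%). The total of all gene counts over the spike-in reached 1.5-fold in the same number of pairs, 3 of 48 (6.25%). In pair 47, daughter 1 had 1.99 times the summed level of its sister, and 76 of the 82 members were higher in it. In pair 23 the ratio was 1.74 in favour of daughter 1, and in pair 3 it was 1.57 in favour of daughter 2. The direction in pair 47 was the opposite as a share of gene counts, of which daughter 1 held 1.60% and its sister 1.76%. The total of gene counts over the spike-in differed in the same direction, by 2.19-fold in pair 47, 1.57-fold in pair 23 and 1.31-fold in pair 3. Over 48 pairs, the log2 ratio of the summed members and that of all gene counts had a Pearson correlation of 0.89 and a Spearman correlation of 0.90, and a Pearson correlation of 0.87 without the 2 pairs farthest from the median. Both quantities share the size factor of each cell, which sets part of this correlation.

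Single members could also be counted by their direction within a pair. With ERCC scaling, at least 75% of the 82 members were higher in the same sister in 9 of 48 pairs (18.8%, interval 8.95 to 32.6%), against 1 pair for all 14463 genes that passed the filter. Besides pairs 47, 23 and 3, these were pairs 1, 7, 9, 17, 22 and 46. The genes that passed the filter had a median of 7.12 TPM and a median sister ratio of 1.26 on the log2 scale. The members had 291 TPM and 0.45. No comparison with genes of similar level was made for this count. In pair 46, 69 of 82 members were higher in daughter 2, whose share of gene counts was 1.74% against 1.37% in its sister. On the CPM scale no pair reached 75%. The highest value was 74.4%, with 61 of 82 members higher in daughter 1 of pair 32, and in pair 46 it was 70.7%, with 58 of 82 members higher in daughter 2.

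The complexes differed in how far their sums varied between sisters. On the CPM scale, the sum of complex V had the smallest ratio between sisters, with a median of 1.08 and a maximum of 1.36. Complex III followed with a median of 1.09 and a maximum of 1.61. Complex I had a median of 1.10 and a maximum of 1.36, and its sum had the highest intraclass correlation of the 5 complexes at 0.62. Complex II had the largest ratio, with a median of 1.21 and a maximum of 1.71, and 9 of 48 pairs reached 1.5-fold, against 0 or 1 in each of the other complexes. Its intraclass correlation was 0.10. With ERCC scaling the intraclass correlations of the sums were 0.68, 0.42, 0.63, 0.67 and 0.67 for complexes I to V, and complex II reached 1.5-fold in 15 pairs, against 4 to 7 in the others. Complex II sums 4 genes and complex I sums 41, and the part of this in the difference was not tested.

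Single members differed more than their sum, and less than most genes. For each member the median over 48 pairs of the absolute log2 ratio between sisters was taken, with ERCC scaling. The median of these values was 0.45 over the 82 members (1.36-fold) against 1.26 over all 14463 genes that passed the filter (2.39-fold). Members are abundant, and abundant genes scatter less, so genes with a median TPM of 100 or more were set apart. There, the median was 0.44 for 71 members and 0.54 for all 1392 genes. The limit did not match the levels, since the median TPM was 315 for these members and 203 for these genes. The part of level in the remaining difference was not separated. The 13 ERCC transcripts between 103 and 1032 TPM, which were added in equal amount to every lysate and also served for the scaling, had a median of 0.43 and a range of 0.28 to 0.81. Over the members counted in all cells with a coding length, the sister ratio was lower at higher TPM (Spearman's rho -0.67 over 77 genes, which are not independent).

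A ratio of 1.5 or more in at least 24 of 48 pairs was met by 22 of 82 members (26.8%), against 79.5% of all genes that passed the filter. Among genes with a median TPM of 100 or more, it was met by 16 of 71 members (22.5%), against 42.5% of all such genes. The members were again the more abundant in the median, and the part of level was not separated. The counted members with the lowest median ratio were in complex IV. Cox6b1 had a median ratio of 0.23 on the log2 scale, Cox6a1 of 0.25 and Cox4i1 of 0.27, and these 3 reached 1.5-fold in 10, 11 and 11 of 48 pairs. Cox6b2 and Cox7a1 had medians of 0 because both sisters lacked counts in most pairs.

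The most variable members were Ndufs6b (0.92), a pseudogene with a median of 0.644 TPM, Ndufa6 (0.83), Ndufb4 (0.77), Cox7a2l (0.77) and Ndufs1 (0.76). Ndufa6, an accessory subunit of complex I, ranged from 17.7 to 705 TPM with a median of 160, and it reached 1.5-fold in 32 of 48 pairs. Cox7a2l ranged from 14.6 to 748 TPM with a median of 182 and reached 1.5-fold in 34 pairs. Its partner of the same family, Cox7a2, ranged from 263 to 948 TPM with a median of 608 and reached 1.5-fold in 16 pairs. The level of Cox7a2l was lower than that of Cox7a2 in the median, and the part of level in this difference of scatter was not tested.

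**Figure D3:**
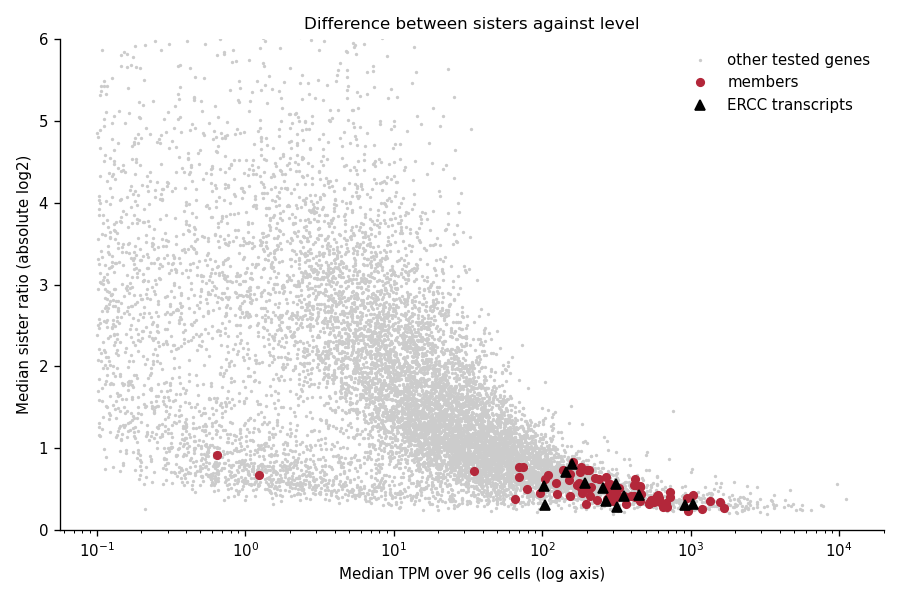
Median absolute log2 ratio between sisters over 48 pairs (vertical axis, ERCC scaling) against the median TPM over 96 cells (log axis, genes of at least 0.1 TPM), for members (red), other genes that passed the filter (grey) and 13 ERCC transcripts (black triangles). Members of 100 TPM or more have a median of 0.44. Most lie among the ERCC transcripts, which also served for the scaling and whose values run from 0.28 to 0.81. Members outside this range include Cox6b1 (0.23), Cox6a1 (0.25) and Cox4i1 (0.27) below it and Ndufa6 (0.83) above it.

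The agreement of sisters differed widely between members. The intraclass correlation of log2 CPM had a median of 0.20 over 82 members, against 0.11 over all genes that passed the filter and 0.28 over the 1392 genes with a median TPM of 100 or more. It was highest for Atp5g2 (0.51), the gene of subunit c whose upstream sequence is shown above, followed by Cox6a1 (0.50), Ndufa12 (0.49), Ndufa5 (0.48) and Ndufa4 (0.44). Ndufa12 and Atp5g2 share 46.3% and 100% of their 75-base stretches with other genes. The lowest values were those of Sdhc (-0.25), Ndufa9 (-0.22), Ndufb5 (-0.21), Cox7a1 (-0.12) and Atp5k (-0.09). In all, 18 of 82 members reached 0.3 (22.0%), against 17.8% of all genes that passed the filter. Among genes with a median TPM of 100 or more, 17 of 71 members did (23.9%), against 47.3% of all 1392 such genes. The limit was also reached by 76 of 80 ribosomal protein genes and 13 of 13 mitochondrially encoded genes.

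Members varied together over the 96 cells to a small degree. The median Spearman correlation between any 2 members was 0.12 on the CPM scale, against 0.01 between all genes that passed the filter, 0.48 between ribosomal protein genes and 0.61 between the mitochondrially encoded genes. Of 3321 pairs of members, 2589 had a correlation above 0. The median was 0.08 after set means were subtracted, 0.06 for the differences between sisters and 0.40 with ERCC scaling. The median within complexes was 0.16 for complex IV, 0.15 for complex V, 0.12 for complexes I and III and 0.06 for complex II. Correlations between members of different complexes were about as high, with 0.12 between complexes I and IV and 0.15 between complexes III and V. All these points share the library, its depth and the CPM denominator of each cell.

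Summed per complex, complexes I and IV had the closest relation (Spearman's rho 0.70, Pearson's r 0.71 over 96 cells), and complexes IV and V had the lowest rho (0.24, r 0.28), whereas complexes II and IV had the lowest r (0.13, rho 0.25). Complex II had rho between 0.25 and 0.39 with each of the others. The sum of complex V thus had a lower rho with complexes I (0.33) and IV than with complex III (0.44). Single members did not set complex V apart in this way. Their median correlations were 0.13 between complexes I and V, 0.13 between IV and V and 0.12 between I and IV. The sums weigh members by their counts. Atp5b and Atp5a1 had median counts of 57131.5 and 29383.5, and their part in the sum of complex V was not separated. No test of these differences was made.

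Each member was then set against the sum of the other members. The correlation was above 0 for 77 of 82 members (93.9%), with a median of 0.33. The 14381 genes outside the list had a median of -0.02 with the summed members, and their share above 0 was not counted. The correlation was at least 0.3 for 45 of 82 members (54.9%), while 2.65% of the genes outside the list reached 0.3 with the summed members. The highest values were those of Cox7a2 (0.56), Cox7c (0.55), both small subunits of complex IV, Ndufb10 (0.54), an accessory subunit of complex I, Uqcrh (0.51), the hinge protein of complex III, and Cox8a (0.51). Among the members below 0 were Atp5b (-0.15), Atp5d (-0.12), Cox6b2 (-0.12) and Atp5a1 (-0.03), and no member reached -0.3.

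The alpha, beta and delta subunits of the catalytic F1 head of the ATP synthase were thus among the lowest. The 2 other F1 genes were not, with 0.38 for Atp5c1 (gamma) and 0.42 for Atp5e (epsilon). The 12 other members of complex V that passed the filter lay between 0.25 and 0.49. In complex I, the 7 core subunits had a median of 0.21, with 1 of 7 at 0.3 or more. The other members, which include Ndufa4 and the pseudogenes Ndufb4c and Ndufs6b, had a median of 0.33, with 18 of 32 at 0.3 or more. This order depended on the scaling. Scaled to ERCC, all 82 members had a correlation above 0 with the others, and Atp5b at 0.66 lay above the median of 0.62. With ERCC, none of the 5 highest members and 1 of the 5 lowest were the same as on the CPM scale. On the TPM scale 4 of the 5 highest and 4 of the 5 lowest were the same, with Atp5b again lowest at -0.28.

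Low correlation went with a long coding sequence. Over 77 members counted in all cells, the correlation with the other members and the coding length had a Spearman correlation of -0.48 and a Pearson correlation of -0.62. The 11 members with a coding length of 1000 bases or more lay between -0.15 and 0.25 around a median of 0.09, whereas the 66 shorter ones had a median of 0.35 and a range of -0.12 to 0.56. The relation was similar under the other scalings, with -0.47 for ERCC, -0.51 for the median of ratios over genes and -0.56 for TPM. The Spearman correlation was -0.38 with the length of the whole transcript and 0.05 with its GC content. The longer members include Atp5a1, Atp5b and Sdha, and also the accessory subunits Ndufa9 (0.16) and Ndufv3 (0.07) of complex I. The core subunit Ndufv2, with a coding length of 744 bases, had 0.44. The part of role was not separated from that of length. Length-dependent capture or amplification was not tested.

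**Figure D4:**
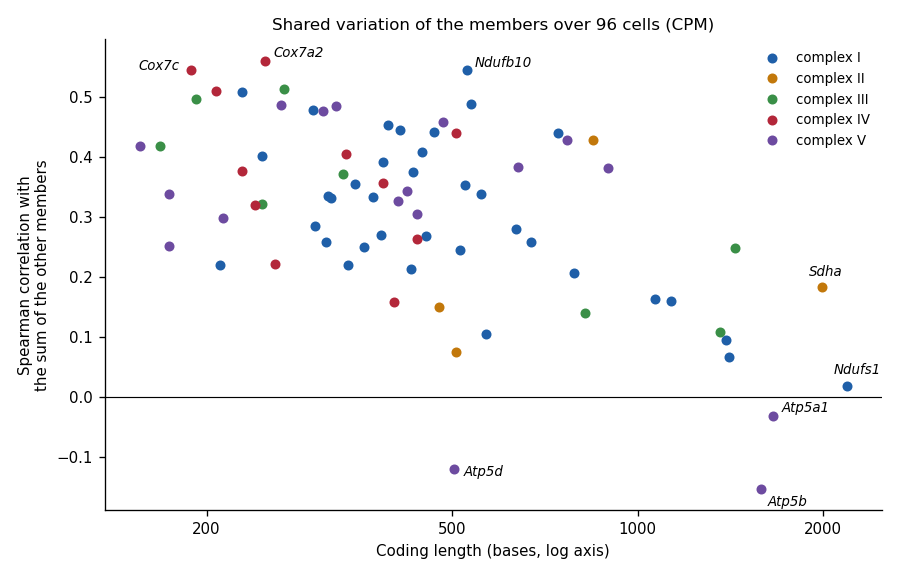
Spearman correlation of each member with the sum of the other members over 96 cells (vertical axis, CPM) against its coding length in bases (log axis), for members counted in all cells, coloured by complex. The members of 1000 bases or more lie at or below 0.25, Atp5b at -0.15 and Atp5d at -0.12 are lowest, and Cox7a2 at 0.56 is highest.

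Genes that share the mitochondrion with the members differed in how they followed them. Over all 14381 genes that are not members, 2.65% reached 0.3 and 2.07% reached -0.3. At these shares, the lack of such a gene in a list of 8 to 16 genes says little about that list. The summed members and the summed mitochondrially encoded genes had rho 0.38 and r 0.40 over 96 cells, and 0.36 and 0.38 without the 2 cells farthest from the median. Of the 13 mitochondrially encoded genes, 10 had at least 0.3, led by mt-Nd4 (0.40) and mt-Cytb (0.40), and the lowest was mt-Atp8 (0.22). Within the 12 sets, the correlation was positive in 9 and negative in 3, between -0.50 and 0.90 over 8 cells each. The ratios between sisters had a rho of 0.33 over 48 pairs, and with ERCC scaling rho was 0.72 over 96 cells.

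The mobile carriers of electrons, cytochrome c (Cycs) and the electron-transferring flavoproteins, had a summed rho of 0.50 with the members, which was 0.28 after set means were subtracted. Cycs itself had 0.36, Etfa 0.29 and Etfb 0.28. The 49 assembly factors and inhibitors had a summed rho of 0.40, but 2 of 49 single genes reached 0.3, against 2.65% of all genes that are not members. These were Atpif1 (0.54), the inhibitor of the ATP synthase, and Uqcc2 (0.40), an assembly factor of complex III. The 13 genes of the tricarboxylic acid cycle had a summed rho of 0.22, and 0 of 13 reached 0.3 or -0.3. Idh3g, a subunit of isocitrate dehydrogenase, was highest at 0.25, and Cs, citrate synthase, was lowest at -0.29. On the TPM scale their summed rho was 0.01.

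Among 16 known regulators of mitochondrial biogenesis, none reached 0.3 or -0.3, against 2.65% and 2.07% of all genes that are not members. Their summed rho was 0.02 on the CPM scale, -0.03 with the median of ratios over genes, -0.13 with TPM and 0.54 with ERCC scaling. Nrf1 and Gabpa, whose letters were found in member promoters, had 0.08 and 0.10 at median levels of 28.2 and 16.3 TPM. The coactivator Ppargc1a had a median of 0 TPM. The median sister ratio of the 16 genes was 1.99 on the log2 scale, far above that of the members. Of 8 hypoxia genes none reached 0.3 or -0.3, with a summed rho of 0.02, and -0.05 with TPM.

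The 15 antioxidant genes had a summed rho of 0.37, and 4 of them reached 0.3, against 2.65% of all genes that are not members. The 4 were Sod1 (0.44), the cytosolic superoxide dismutase, Gclm (0.36), Gpx4 (0.33) and Nqo1 (0.30). The mitochondrial enzymes Sod2 and Prdx3 had 0.11 and 0.08. Of 80 ribosomal protein genes, 55 reached 0.3 (68.8%), against the same 2.65%. Their summed rho was 0.45 on the CPM scale and 0.20 on the scale of the median of ratios over genes. No share was taken over genes of similar level.

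Glycolysis and keratinocyte-like genes ran the other way on the relative scales. The summed glycolysis genes had rho -0.31 and r -0.31 with the members over 96 cells, and rho -0.38 for the ratios between sisters. Of 19 rows, 4 were at -0.3 or lower, against 2.07% of genes outside the list. These were Tpi1 (-0.39), Eno1 (-0.36), Pgam1 (-0.36) and the glucose carrier Slc2a1 (-0.32). Ldhb, the lactate dehydrogenase form that favours lactate use, was the exception with 0.36, whereas Ldha, the far more abundant form, had -0.06. The correlation was negative in 10 of 12 sets. It was -0.16 on the scale of the median of ratios over genes, -0.41 on the TPM scale and 0.67 with ERCC scaling.

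Squamous genes, which mark keratinized epithelium and injury, had the lowest summed rho of all lists, -0.48 (r -0.53), and 0.34 with ERCC scaling. Of 10 genes, 6 were at -0.3 or lower, against 2.07% of all genes that are not members. Krt16 (-0.55) and Krt6a (-0.50) were lowest, and the correlation of the summed list was negative in 11 of 12 sets. The summed list held 0.0469 to 6.20% of gene counts over cells. Without the 2 cells farthest from the median of the members, rho was -0.45. The 3 HBC markers had a summed rho of -0.30, with Krt14 at -0.31, Krt5 at -0.24 and Trp63 at -0.20, and 0.37 with ERCC scaling. A gene list that takes a large share of counts lowers the share left for others on the CPM scale, and this part was not separated.

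**Figure D5:**
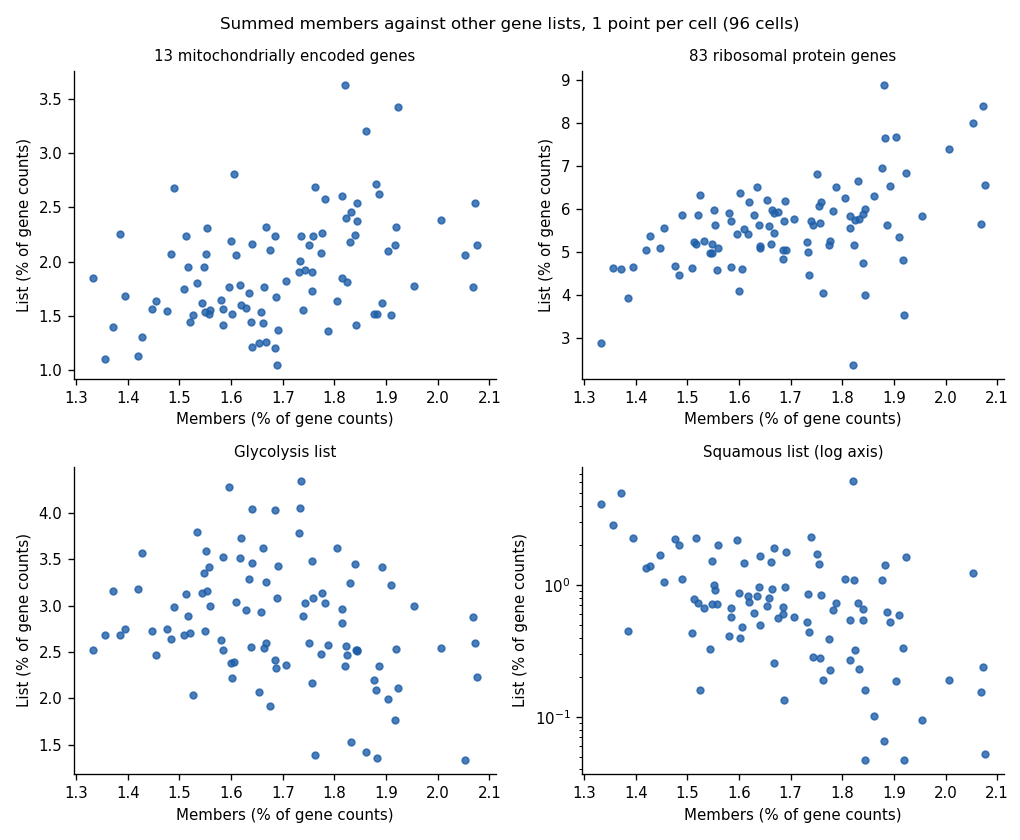
Share of gene counts of the summed members (%, horizontal axes) against that of the mitochondrially encoded genes, the ribosomal protein genes, the glycolysis list and the squamous list (%, vertical axes, the last on a log axis), with 1 point for each of 96 cells. The clouds rise in the upper panels (rho 0.38 and 0.45) and fall in the lower panels (rho -0.31 and -0.48), with wide scatter in each.

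The cell cycle genes had a summed rho of 0.20 with the members, which was 0.05 after set means were subtracted, -0.0535 on the scale of the median of ratios over genes and 0.61 with ERCC scaling. None of 14 reached 0.3 or -0.3, against 2.65% and 2.07% of all genes that are not members. The highest were Ube2c (0.28) and Cenpf (0.24), genes of mitosis, and the lowest were Mcm5 (-0.20) and Pcna (-0.13), genes of DNA replication. Technical measures moved with the members as well. The CPM sum had a rho of -0.37 with the total of gene counts over the spike-in, -0.31 with the number of genes counted and -0.18 with the counts on genes, and their part in the relations above was not tested.

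Over all genes outside the list, those closest to the summed members were Gm12918 (0.54), Atpif1 (0.54), Hmgb1-ps2 (0.54) and the ribosomal protein genes Rpl35 (0.54) and Rps19 (0.54), each over 96 cells. Atpif1 had 242 TPM in the lowest cell, 811 in the median cell and 1449 in the highest, a level within the range of complex V. Among the genes with the lowest values were Capn2 (-0.59), a calpain protease, and the keratins Krt16 (-0.55) and Krt17 (-0.54). All of these genes were picked for this measure, so their values are a description.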

How the data were processed

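Single-cell cDNA of 96 cells was sequenced. Per the submitters' processing notes, reads were trimmed with Trimmomatic 0.39, aligned with STAR 2.7.11a to GRCm38 with ERCC sequences and quantified with StringTie 2.2.1. The authors deposited whole-number estimated counts per gene, without normalization, which equal coverage times length divided by 75, and TPM per gene. Counts on genes came to 29454150 to 44849003 per cell, and no molecular identifiers were used.

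Cells were scaled by size factors (0.387 to 1.93) that came from those 22 ERCC transcripts, of 92, with counts in every cell. A gene was counted at 1 count and passed the filter at 10 counts in at least 10% of cells (14463 genes). Ratios used a pseudocount of 1. Intraclass correlations used log2(CPM + 1) and other correlations CPM. Shares have Clopper-Pearson 95% intervals, and a count of 0 was given a limit of 3 cells of 96. Main transcripts (longest coding part) came from GENCODE M21. Python 3.11.15 with numpy 2.4.6, scipy 1.17.1, pandas 2.3.3 and matplotlib 3.10.9 was used, and calculations were tested on simulated data.

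Genes named were the Sdh genes, the tissue isoforms, the members of highest and lowest TPM per complex, the 5 highest and 5 lowest by sister ratio, intraclass correlation and correlation with the other members, members without counts, genes of the lists, and the 5 closest genes outside the list. Members and lists were chosen with earlier results of these data known, and the ribosomal protein list, the TPM limit of 100 (also used to pick ERCC transcripts), the core subunit groups and the members named for low values were set after values were seen. No tests were made, since the labels give 1 group. Some genes that this rule would name are not reported here.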

Additional observations from a re-analysis of the deposited data

Results flagged for a closer look

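Rows of the same families whose symbol carries "-ps" were not members, and no result above was given for them, although those that passed the filter were among the other genes. Of 14 such rows, 13 were counted in more than 3.12% of cells, a limit set at 3 of 96 cells, which concerns cells with a count and not cells that express a gene. Ndufb1-ps, Ndufs5-ps, Atp5l2-ps, Cox5b-ps, Ndufa12-ps, Ndufab1-ps, Atp5l-ps1, Atp5pb-ps and Atp5l-ps2 were counted in 100% of cells, Cox7c-ps1 in 99.0%, Uqcrh-ps1 in 51.04%, Atp5k-ps2 in 45.8% and Uqcrh-ps2 in 42.7%. Ndufb1-ps had the highest level, with 32.4 TPM in the lowest cell, 71.9 in the median cell and 175 in the highest, and shared no 75-base stretch with a member. Ndufs5-ps had a median of 46.9 TPM and shared 59.6% of its stretches with Ndufs5, and Ndufa12-ps had a median of 7.36 TPM and shared 69.5% with Ndufa12. How reads were divided between these copies was not tested.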

How the results depend on the processing

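Of 52 alternative values for 10 results, 39 stayed within a limit, 12 moved further and 1 changed sign. The limit was 1.5 times for counts and otherwise 1 SD, over cells, members or pairs of members. For the correlations with mitochondrially encoded and cell cycle genes, the SD was that of the correlations within the 12 sets of 8 cells. This limit was wide. Within it, the former moved from 0.38 to 0.72 with ERCC scaling and the latter from 0.20 to 0.05 after set means were subtracted. The members' share was 3.43% as TPM. The number of pairs with 1.5-fold sums was 0 with CPM, 1 with the median of ratios over genes, 0 with TPM and 0 at 2-fold, and the median percent of pairs per member at 2-fold was 17.7%. With ERCC scaling the median intraclass correlation was 0.38 and the median correlation between members 0.40. The number of pairs with 75% of members one way was 0 with CPM, 1 with the median of ratios over genes and 0 with TPM. The correlation with cell cycle genes was 0.61 with ERCC scaling and -0.0535 with the median of ratios over genes, where its sign changed. The cause of these moves was not tested. Leaving out each set moved no result further than this: 78 members in every case, a share of 1.67 to 1.70%, 2 to 3 pairs with 1.5-fold sums, 38.6 to 40.9% of pairs per member, a sister ratio of 0.44 to 0.46, an intraclass correlation of 0.18 to 0.20, a correlation between members of 0.11 to 0.13, 7 to 9 pairs with one direction, 0.34 to 0.43 for mitochondrially encoded genes and 0.14 to 0.26 for cell cycle genes. Without members that share 20% or more of their stretches, added after values were seen, the sister ratio was 0.45, the intraclass correlation 0.20 and the correlation between members 0.10. There was 1 group, so no fit between groups, paired or not, was made, and the pairing of sisters entered only the sister ratios, differences and intraclass correlations.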
